A study of Sus scrofa with 61 samples.

Results

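Expression of 5 complement genes was followed in pig liver across development: MBL2, C9, C7, C1QA and CFP. They were chosen with their values over the stages known, and every probe-set annotated to one of these symbols was taken, which gave 8 of the 24123 probe-sets of the array and 5 of its 6765 genes with a symbol of their own. The levels and the differences of the members between stages are therefore a description and carry no test. Tests were made only of the other complement genes, of cell type marker lists and of relations among animals within a stage. The complement and marker lists were also chosen with earlier results of these data known, so their calls are not free of that choice.

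All livers came from German Landrace offspring of primiparous sows on a low protein diet (LP, 6% crude protein) during gestation, with 1 animal per Affymetrix porcine array. There were 16 fetuses at 94 days post conception (dpc), 14 piglets at 1 day post natum (dpn), 15 weaners at 28 dpn and 16 finished pigs at 188 dpn. Offspring of sows on the adequate protein diet were not analysed here. Fetuses were taken by Caesarean section in a separate experiment and the older animals were farrowed. Pigs at 28 and 188 dpn were fasted overnight, and no fast is described for the piglets at 1 dpn. Killing was by injection at 94 dpc and 1 dpn, with different agents, and by electronarcosis and bleeding at 28 and 188 dpn. Stage, experiment, feeding state and way of killing therefore cannot be told apart. Piglets that were kept beyond 1 dpn were cross-fostered to sows on the adequate diet, and the males were castrated. Sibling pairs balanced for sex were used, a light and a heavy animal at 94 dpc and 1 dpn. Piglets of a litter were also spread over 1, 28 and 188 dpn, so these stages may share litters. The labels name neither litter nor sex, so animals were treated as independent and p-values may be too small. Development was split into period I (1 dpn against 94 dpc), period II (28 dpn against 1 dpn) and period III (188 dpn against 28 dpn), and differences are the later minus the earlier stage in log2 signal.

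Complement is a cascade of plasma proteins that marks microbes and damaged cells for uptake and can punch pores into membranes. It is started by C1q bound to antibody (classical pathway), by lectins such as mannose-binding lectin bound to microbial sugars (lectin pathway) or by the self-amplifying alternative pathway, which properdin stabilises, and all 3 lead to a C3 convertase and then to the terminal proteins C5 to C9. Hepatocytes make most of the plasma complement proteins. C1q is made mainly by macrophages, in the liver by Kupffer cells, and properdin by monocytes, macrophages, neutrophils and T cells. In humans much of the C7 is made outside hepatocytes, so that the term hepatocyte-made is used here as a name for the set of MBL2, C9 and C7. In whole liver, fewer cells of a type and less RNA per cell cannot be told apart.

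The arrays were scaled by the authors to a common mean, which lay between 500.127 and 500.229 after trimming, while the median signal of an array had a stage median of 167, 150.4, 118 and 102 from 94 dpc to 188 dpn. A level above the array median is used below as a sign of a signal over background. Among tested genes the median change was -0.02 in period I, -0.07 in period II and -0.14 in period III, and with array medians subtracted it was 0.15, 0.35 and 0.09. Calls over all probe-sets followed the scaling. In period I 3189 (26.1%) were higher and 5091 (41.6%) lower, against 4137 and 4003 with array medians subtracted. In period II 3510 (29%) were higher and 5018 (41.4%) lower, against 6013 and 2878, and in period III 2008 (18.3%) were higher and 3912 (35.7%) lower, against 3627 and 2466. RNA quality was read from control probe-sets at both ends of GAPDH, beta-actin and EF1A, and on 9 arrays the log2 signal at the 3' end minus that at the 5' end of at least 1 of them stood apart from its stage. This difference averaged 1.05, 0.39, 0.79 and 0.64 for GAPDH from 94 dpc to 188 dpn. For beta-actin it averaged 2.27, 1.78, 3.94 and 4.03, and for EF1A -0.02, -0.14, 0.39 and 0.56. The difference thus moved with stage for each control, for beta-actin most in period II. Its part in the differences between stages was not tested, and within stages the members were related to the GAPDH difference alone.

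**Figure D1:**
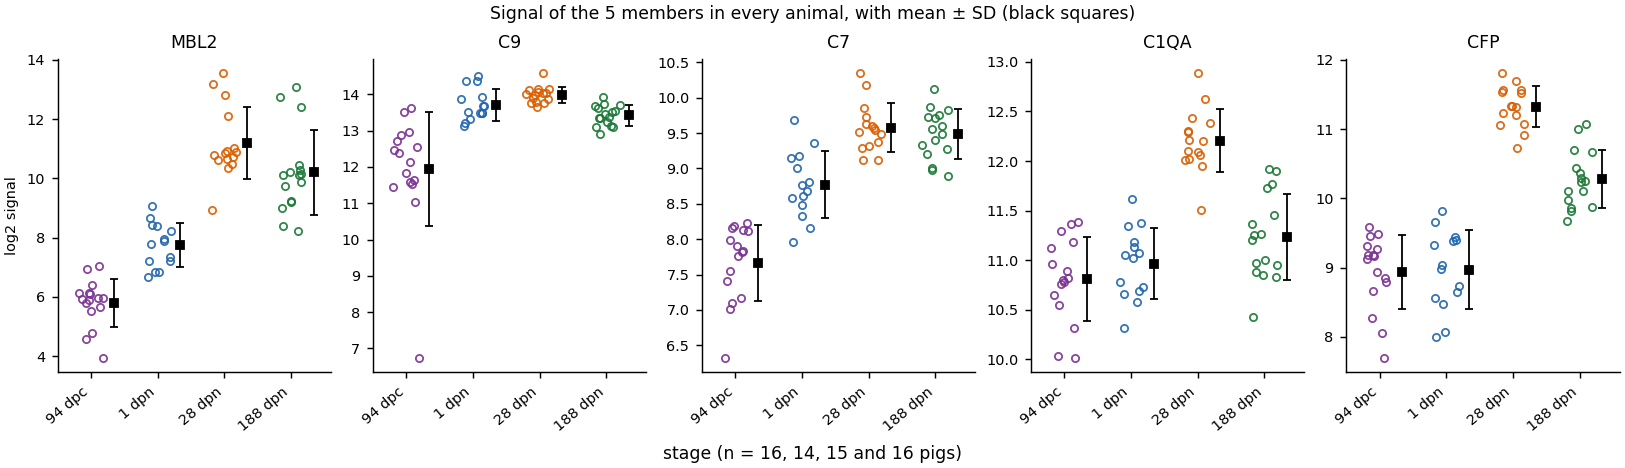
Log2 signal (vertical axes, scaled for each gene) of the brighter probe-set of each member in every animal at the 4 stages (horizontal axis), with the mean and SD beside the points. MBL2 has a few animals far above the rest at 28 and 188 dpn, 1 fetus stands far below the others in C9, and every member has its highest mean at 28 dpn.

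MBL2 encodes the mannose-binding lectin made by hepatocytes, a recognition protein of the lectin pathway, and had the widest course of the members. Its lowest, median and highest log2 signals were 3.94, 5.94 and 7.06 in the fetuses, 6.65, 7.84 and 9.07 at 1 dpn, 8.94, 10.84 and 13.54 at 28 dpn, and 8.23, 10.11 and 13.08 at 188 dpn. In the fetal liver it lay below the array median in all 16 animals, at 1 dpn it was above in 10 of 14, and later it was above in every pig. The mean was 1.95 higher in period I (SE 0.29), 3.44 higher in period II (SE 0.37) and 0.99 lower in period III (SE 0.48). Every pig at 28 dpn and at 188 dpn was above every fetus, with means 42.0-fold and 21.1-fold those of the fetuses, or 14.0-fold and 7.05-fold with signals below the array median raised to it, whereas adjacent stages overlapped. With the same floor the difference in period I was 0.46. At 28 dpn the brighter probe-set of every other member was likewise above every fetus, in C9 by only 0.04 and in C1QA by 0.11. With the second probe-sets of C9, C7 and CFP these stages overlapped. The share of all genes without overlap was not counted for 28 or 188 dpn against 94 dpc.

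Within the 2 oldest stages MBL2 differed among pigs more than any other member, 24.4-fold at 28 dpn and 29.0-fold at 188 dpn between the lowest and the highest animal. At 28 dpn 1 pig was at 8.94, 10 lay between 10.34 and 11.02, and 4 lay between 12.09 and 13.54. At 188 dpn 13 pigs lay between 8.23 and 10.45 and 3 between 12.41 and 13.08, with nothing over an interval of 1.96. These pigs raised the stage means, and by medians the differences were 1.90, 3.01 and -0.73 in periods I, II and III. Only 1 probe-set represents MBL2, so no second measurement of these animals was at hand. Within these stages MBL2 passed the adjusted test with no other member, the values farthest from 0 being those with C9 (r = -0.507 at 28 dpn and 0.477 at 188 dpn, permutation p adjusted over 40 relations 0.33 for both).

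C9 encodes the protein that polymerises into the pore of the membrane attack complex. Its lowest, median and highest values were 6.74, 12.27 and 13.63 at 94 dpc, 13.14, 13.60 and 14.52 at 1 dpn, 13.66, 14.00 and 14.58 at 28 dpn, and 12.91, 13.42 and 13.94 at 188 dpn. The mean was 1.78 higher in period I (SE 0.41), 0.27 higher in period II (SE 0.13) and 0.57 lower in period III (SE 0.09). All pairs of adjacent stages overlapped, and 12 of 16 pigs at 188 dpn were below every pig at 28 dpn. The SD was 1.58 in the fetuses and 0.44, 0.22 and 0.28 at the 3 later stages in order of age.

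The fetal spread of C9 came largely from a single fetus (94 dpc replicate 9). Its signal was 6.74, below the array median, whereas the other 15 fetuses lay between 11.03 and 13.63 (mean 12.29, SD 0.77). The second probe-set of C9 gave the same animal the lowest value, 2.81 against 5.05 to 8.03 in the others. In the other members this fetus was unremarkable, ranking 14 of 16 from the lowest in MBL2, 11 in C7, 9 in C1QA and 15 in CFP, and its array was not among the 9 named above. Without it, an alternative chosen after seeing the data, C9 was 1.43 higher in period I.

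C7 encodes the terminal component with which the growing complex inserts into a membrane. Its lowest, median and highest values were 6.32, 7.83 and 8.23 at 94 dpc, 7.97, 8.73 and 9.68 at 1 dpn, 9.11, 9.54 and 10.35 at 28 dpn, and 8.89, 9.52 and 10.12 at 188 dpn. The mean at 1 dpn was 2.15-fold that at 94 dpc (SE of the log2 difference 0.18). It was 0.81 higher in period II (SE 0.16), and period III gave a difference of -0.10 (SE 0.13), within the spread, which was 0.06 with array medians subtracted. Every pig at 28 dpn and at 188 dpn was above every fetus.

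C1QA encodes the A chain of C1q, the antibody-binding recognition protein of the classical pathway. Its lowest, median and highest values were 10.02, 10.81 and 11.39 at 94 dpc, 10.31, 11.04 and 11.61 at 1 dpn, 11.50, 12.20 and 12.89 at 28 dpn, and 10.43, 11.23 and 11.92 at 188 dpn. The mean differed by 0.16 in period I (SE 0.14), within the spread, and was 1.24 higher in period II (SE 0.13) and 0.97 lower in period III (SE 0.14). At 28 dpn 14 of 15 weaners were above every piglet at 1 dpn, and at 188 dpn 12 of 16 pigs were below every weaner. The pigs at 188 dpn overlapped with the fetuses, with means of 11.24 and 10.81.

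CFP encodes properdin, which prolongs the life of the alternative pathway convertase. Its lowest, median and highest values were 7.70, 9.15 and 9.59 at 94 dpc, 8.00, 9.01 and 9.82 at 1 dpn, 10.73, 11.33 and 11.81 at 28 dpn, and 9.68, 10.24 and 11.08 at 188 dpn. The mean differed by 0.03 in period I (SE 0.20), with a sign that turned for medians (-0.14) and when the probe-sets were averaged (-0.07), and was 2.36 higher in period II (SE 0.17) and 1.05 lower in period III (SE 0.13). All 15 weaners were above all 14 piglets, the only case without overlap among the brighter probe-sets of the members in adjacent stages, and 5.65% of 4757 tested genes were likewise higher without overlap. At 188 dpn 14 of 16 pigs were below every weaner, and all 16 stayed above every fetus. C1QA and CFP thus shared their course, with little difference around birth, the highest level at weaning and a lower level in the finished pig. The highest mean at weaning was not particular to them. The brighter probe-sets of MBL2, C9 and C7 also had it at 28 dpn, and MBL2 and C9 were likewise lower in period III.

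The 2 sets differed most around birth. The mean difference of the hepatocyte-made members was 1.61 in period I, 1.51 in period II and -0.55 in period III, and that of the macrophage-made members was 0.09, 1.80 and -1.01. Hepatocyte-made minus macrophage-made was 1.52 in period I, which was 0.97 with the array median as a floor, -0.29 in period II and 0.46 in period III. The mean of period II joins unlike members, since C9 differed by 0.27 and MBL2 by 3.44.

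**Figure D2:**
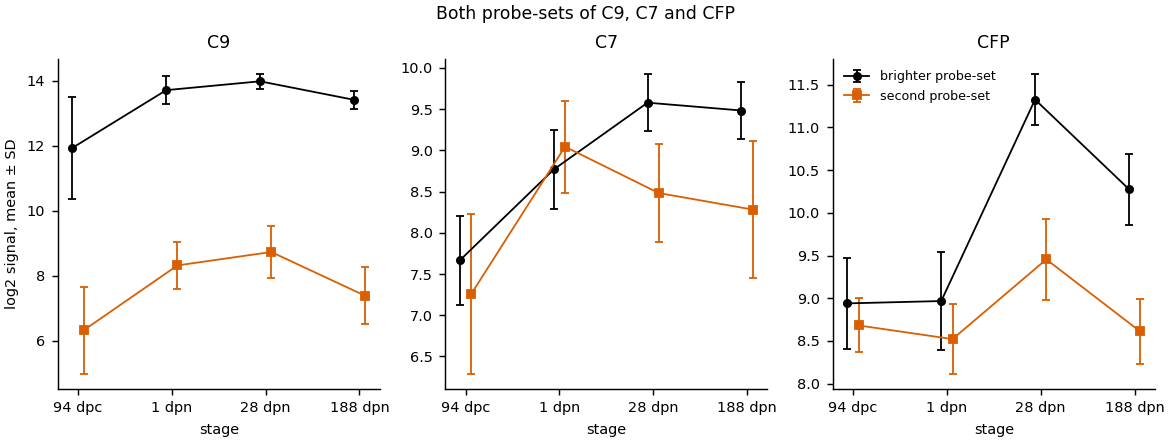
Mean log2 signal ± SD (vertical axes) of both probe-sets of C9, C7 and CFP at the 4 stages (horizontal axis, 14 to 16 animals each). The probe-sets of C7 run apart after 1 dpn, and the second probe-set of CFP shows a smaller peak at 28 dpn than the brighter one.

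For C9, C7 and CFP a second probe-set allowed a check within the same animals. That of C9 was far dimmer and gave differences of 2.00 in period I, 0.41 in period II and -1.35 in period III. The probe-sets of C7 disagreed in direction in period II, at 0.81 for the brighter and -0.56 for the second (SE 0.21), and the second one had its highest mean at 1 dpn. With it the later stages overlapped with the fetuses, and 5 of 15 pigs at 28 dpn and 7 of 16 at 188 dpn were above every fetus. That of CFP gave -0.16, 0.93 and -0.84 in periods I, II and III, and with it the weaners and the piglets at 1 dpn overlapped at 8.53 to 10.09 and 7.67 to 9.26, as did the pigs at 188 dpn and the fetuses, with means of 8.61 and 8.68. Across animals of a stage the probe-sets of C9 correlated at r = 0.884 at 94 dpc and r = 0.008 at 28 dpn (description, n = 16 and 15), those of C7 at 0.544 to 0.729, and those of CFP at 0.268 to 0.723. All 8 probe-sets passed the filter on low signal and spread in all 3 periods.

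The other complement genes were taken from a list of 47, of which 28 were on the array, and stages were compared with limma over all tested probe-sets (stage as the only term, two-sided, called at P and Storey q of 0.05 or less). To be tested, a probe-set had to exceed the median of the array for 50% or more of the animals in 1 of the 2 stages and to have an SD above 0.25. In period I 24 of the 28 were tested, of which 11 were higher and 3 lower, beside 33.9% higher and 35.4% lower among all tested genes. In period II 17 of 24 were higher and 2 lower, beside 33.2% and 39.1%, and in period III 3 of 16 were higher and 7 lower, beside 21.7% and 39% of all tested genes. The median change of the tested genes of the list was 0.30, 1.14 and -0.25. Without overlap between stages, 4 were higher and 0 lower in period I, beside 5.8% and 4.26% of all tested genes, 12 were higher and 0 lower in period II, beside 5.65% and 5%, and 0 were higher and 1 was lower in period III, beside 0.797% and 1.15%. With array medians subtracted the counts were 15 higher and 2 lower, 20 and 1, and 7 and 6, with 25 tested in period I. All probe-sets tested under that scaling gave 4137 higher and 4003 lower of 12385, 6013 and 2878 of 12468, and 3627 and 2466 of 11749. The shares given before belong to the main scaling and are not the ones to set beside these counts.

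**Figure D3:**
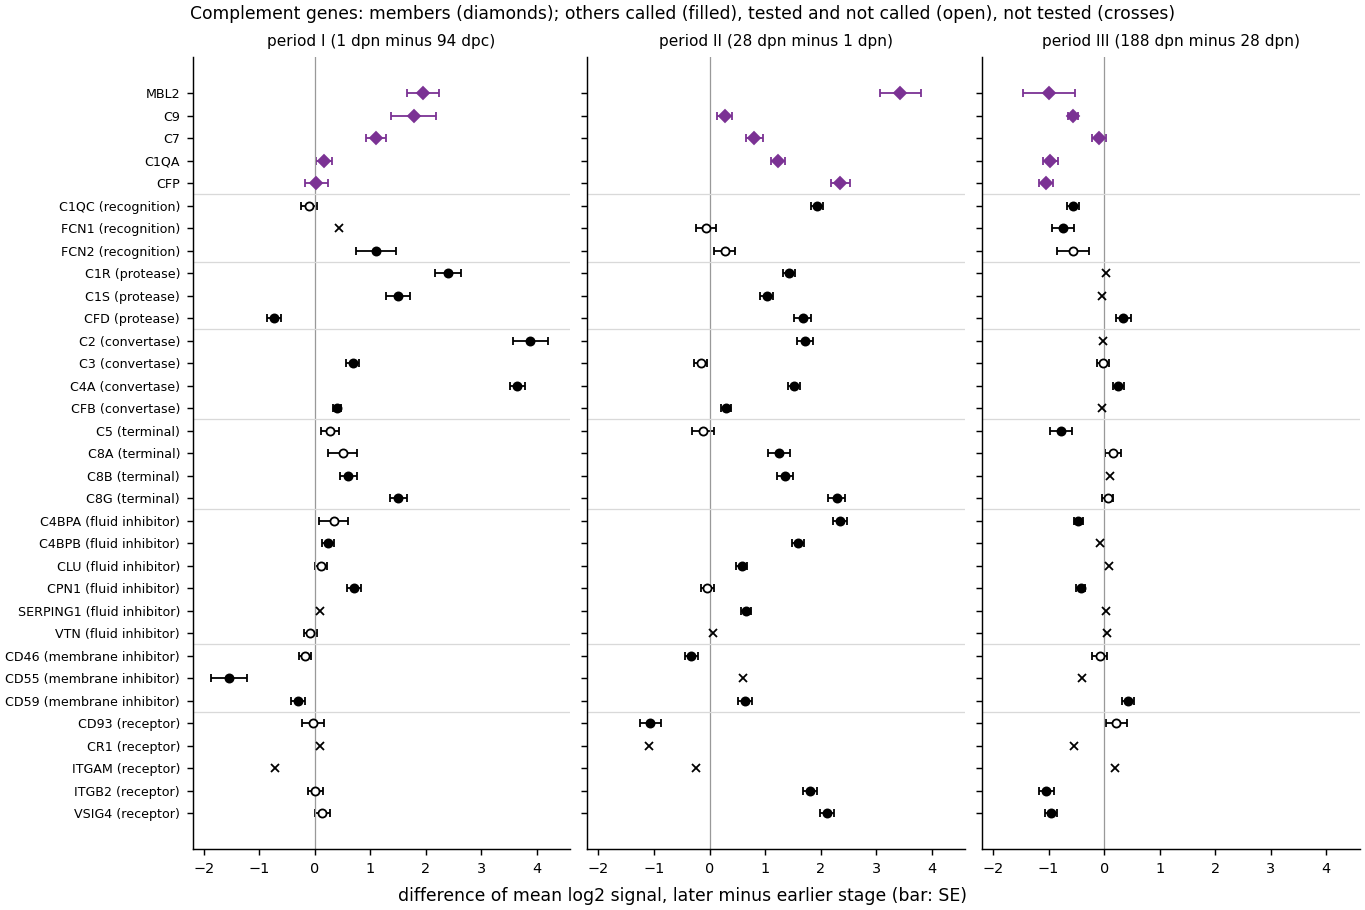
Difference of mean log2 signal, later minus earlier stage (horizontal axes, bars are SE), for the 5 members and the 28 other complement genes grouped by role (vertical axis), in periods I, II and III. Most of the 17 genes called higher in period II lie to the right of 1, and ITGB2 and VSIG4 lie farthest to the left of the other complement genes in period III.

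Among recognition proteins, C1QC, the C chain of C1q, had a course like that of C1QA. It did not pass the test in period I (-0.11, SE 0.14, q = 0.11), was 1.94 higher in period II without overlap (SE 0.11, q = 8.56e-16) and 0.56 lower in period III (SE 0.10, q = 1.18e-05). FCN2, a ficolin of the lectin pathway, was 1.11 higher in period I (q = 0.00167) and was called in no later period. FCN1, the ficolin of myeloid cells in humans, was 0.74 lower in period III (q = 0.000864). Its medians were 6.43 at 188 dpn and 7.03 at 28 dpn, close to or below the array median.

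C1R, C1S, C4A and C2, the measured proteases and convertase parts of the classical pathway, rose in both early periods. C1R and C1S, the proteases carried by C1q, were 2.40 and 1.49 higher in period I and 1.43 and 1.03 higher in period II, and neither passed the filter in period III. C4A and C2, which form the C3 convertase of the classical and lectin pathways, were 3.64 and 3.88 higher in period I and 1.52 and 1.71 higher in period II, without overlap in either period. The probe-set of C4A may also read other copies of C4. C2 had a fetal median of 7.06, near the array median, and with the array median as a floor its difference in period I was 3.05. C4A was also 0.26 higher in period III (q = 0.00736), a call lost with quantile normalization. C3, the central component, was 0.68 higher in period I and was called in neither later period.

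Of the genes particular to the alternative pathway, CFB and CFD were measured besides CFP. CFB, the protease part of its convertase, was 0.40 higher in period I and 0.30 higher in period II, where a second probe-set was 1.18 lower, the mean of both fell by 0.44 and the call was lost with quantile normalization. CFD, the factor D that cleaves factor B, was 0.73 lower in period I (q = 1.33e-06), 1.68 higher in period II without overlap (q = 1.03e-11) and 0.34 higher in period III (q = 0.00906).

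Among the terminal genes, C8G, C8B and C8A, the chains of C8, were 2.29, 1.36 and 1.25 higher in period II, and C8G and C8B also 1.51 and 0.60 higher in period I. No C8 gene was called in period III. C5, whose cleavage starts the terminal complex, was 0.78 lower in period III (q = 0.000406) and was called in neither earlier period.

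Of the 6 soluble inhibitors on the array, 2 of 5 tested were higher in period I, beside 33.9% of all tested genes. In period II 4 of 5 were higher, beside 33.2%, and in period III 2 of 2 were lower, beside 39%. C4BPA and C4BPB, the chains of C4b-binding protein, were 2.35 and 1.60 higher in period II without overlap. SERPING1, the C1 inhibitor, was 0.66 higher in that period. C4BPB was also 0.23 higher in period I (q = 0.00992), a call lost with quantile normalization and without the arrays that stood apart in RNA quality. C4BPA was 0.46 lower in period III. CPN1, a carboxypeptidase that inactivates anaphylatoxins, was 0.71 higher in period I and 0.42 lower in period III, a call lost with array medians subtracted, and in period II it was not called (-0.04) while its second probe-set was called lower (-0.60).

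The membrane inhibitors gave values that were small, near the array median or unlike between probe-sets. CD55, which dissociates convertases, fell by 1.54 in period I (q = 1.80e-05), with medians of 6.36 at 1 dpn and 7.42 at 94 dpc, close to or below the array median, and by 0.39 with the array median as floor. CD59, which blocks C9, was 0.29 lower in period I and 0.64 and 0.42 higher in periods II and III. CD46, a cofactor of C3b cleavage, was 0.33 lower in period II, 0.0212 higher with array medians subtracted. Without that subtraction its other probe-sets were also called lower in period II, at -1.18 and -1.63. In period I the brightest probe-set of CD46 was not called, and the others were called in opposite directions, at -0.32 and 0.36. With averaged probe-sets the calls of CD55 in period I and of CD59 in periods I and III were lost, and that of CD59 in period I was also lost with either other scaling.

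Among the receptors, VSIG4, a C3b receptor of Kupffer cells in mice and humans, was 2.11 higher in period II (q = 1.96e-15) and 0.96 lower in period III (q = 2.42e-09), with no overlap in either period. ITGB2, the beta chain of complement receptors 3 and 4, was 1.81 higher in period II (q = 3.86e-14) and 1.05 lower in period III (q = 5.50e-08). CD93, a receptor of endothelial and myeloid cells, was 1.06 lower in period II, a call lost with averaged probe-sets. Of the 16 genes of the list tested in both periods II and III, 4 were higher in the first and lower in the second of these, namely C1QC, C4BPA, ITGB2 and VSIG4, beside 9.57% of 3949 genes. Of the 22 tested in both periods I and II, 8 were higher in both, beside 10.3% of 4275 genes, namely C1R, C1S, C2, C4A, C8B, C8G, C4BPB and CFB, of which C4BPB in period I and CFB in period II lost their calls under alternatives as given above.

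Marker lists of liver cell types also differed between stages, some in the direction of the members and some against it. Their counts stand beside those of all tested genes, of which 33.9% were higher and 35.4% lower in period I. The shares were 33.2% and 39.1% in period II, and 21.7% and 39% in period III. Of the 16 hepatocyte markers on the array, 7 of 14 tested were higher and 1 lower in period I, none was higher and 8 of 10 were lower in period II, and none was higher and 1 of 7 was lower in period III, with median changes of 0.18, -0.39 and -0.05. Their summed signal ranged from 503213 to 1024664 at 94 dpc, 640981 to 1011846 at 1 dpn, 517385 to 915642 at 28 dpn and 513284 to 878221 at 188 dpn, and all were above the array median in most animals of every stage. In period II the means of MBL2 and of the brighter C7 probe-set were higher, and no tested hepatocyte marker was called higher. These markers had far higher signals, with means of 16.31 for ALB, 16.12 for APOA1 and 16.03 for TF at 1 dpn. Whether signals this high can still rise or vary on the array was not tested.

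Of the 12 macrophage markers, 6 were higher and 2 lower in period I, 8 higher and 1 lower in period II, and 1 higher and 8 of 11 lower in period III, with median changes of 0.33, 1.09 and -0.62, beside 0.09, 1.80 and -1.01 for the mean of C1QA and CFP. Their summed signal ranged from 14559 to 24277 at 94 dpc, 21553 to 36680 at 1 dpn, 58957 to 79223 at 28 dpn and 61062 to 77115 at 188 dpn. Single markers parted from each other: CD163, a scavenger receptor of resident macrophages, was 1.13 higher in period I and 1.52 lower in period III, FOLR2 was 4.33 higher in period II and 0.68 higher in period III, and MARCO was 2.71 lower in period III, when it was above the array median in 2 of 16 pigs. SPI1 was above the array median in 3 of 16 fetuses. The part of the marker shifts in the differences of C1QA and CFP between stages was not tested.

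Other lists held called genes too, to be read beside the shares of all tested genes given above. The counts of the stellate and endothelial lists in periods I and II lay near those shares. Granulocyte markers, from cells that also hold properdin, were lower in 2 of 6 in period I and in 5 of 5 tested in period II (median -1.86), when CFP was higher, and none of 2 was called in period III. T and NK markers had none tested in period I, 6 of 6 higher in period II (median 2.13), and 1 higher and 2 lower of 7 in period III. Erythroid markers were lower in 5 of 5 in period I (median -2.03), with 2 of 4 higher in period II and 1 of 4 in period III. Stellate markers were 2 higher and 2 lower of 7, 2 and 3 of 8, and 2 and 0 of 7 in periods I, II and III, and endothelial markers 2 and 2 of 6, 2 and 3 of 7, and 1 and 3 of 6. Of the B cell markers 0 of 1, 1 of 2 and 1 of 2 were higher and none lower, and of the 3 tested cholangiocyte markers 0 were called in period I, 1 was higher and 2 were lower in period II and 3 were lower in period III. Their part in the members' differences was not tested.

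**Figure D4:**
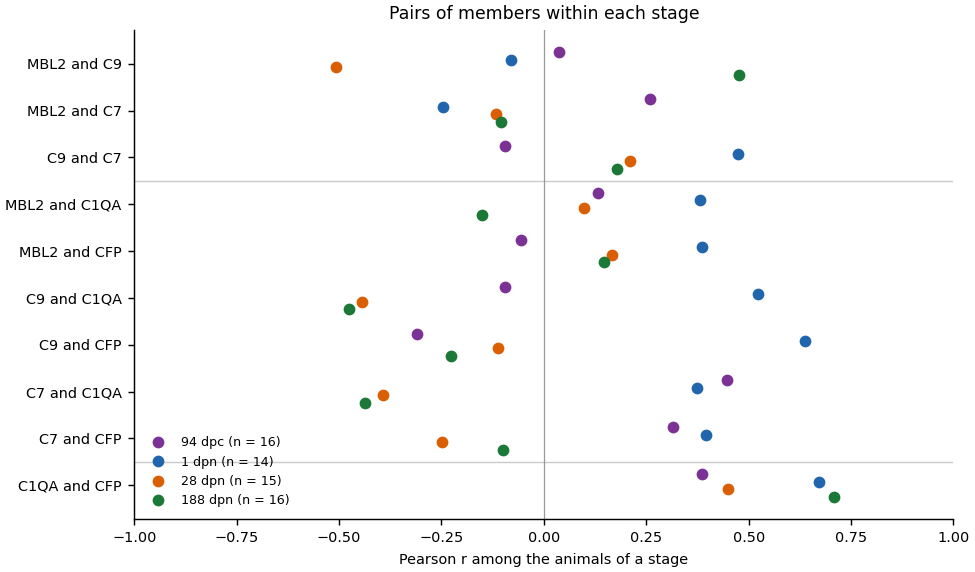
Pearson r between each pair of members among the animals of a stage (horizontal axis) for the 10 pairs (vertical axis), coloured by stage. The pair of C1QA and CFP is the only one of the set of 10 with r above 0.3 at all 4 stages.

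Differences among animals of a stage were not used to choose the members and were tested (two-sided permutation tests of Pearson's r and Spearman's rho, 100000 resamples, Benjamini-Hochberg over each family). Of 40 relations between pairs of members, 3 had p at or below 0.05 for r, and 0 remained after adjustment. The 3 were C1QA with CFP at 1 dpn (r = 0.672, p = 0.00914, adjusted p = 0.183, rho = 0.710, p = 0.00608) and at 188 dpn (r = 0.708, p = 0.00216, adjusted p = 0.0864, rho = 0.676, p = 0.00499), and C9 with CFP at 1 dpn (r = 0.638, p = 0.0142, adjusted p = 0.189, rho = 0.714, p = 0.00513). For the pair at 188 dpn r was 0.810 without the 2 pigs farthest from the median of C1QA, and with array medians subtracted r was 0.802 with an adjusted p of 0.0092. C1QA and CFP had positive r at all 4 stages, 0.386 at 94 dpc and 0.449 at 28 dpn besides those named. By rank, p was also at or below 0.05 for C1QA with CFP at 94 dpc (rho = 0.538, p = 0.0343, adjusted p = 0.343). The same held for C9 with C1QA at 188 dpn, with a negative sign (rho = -0.509, p = 0.0468, adjusted p = 0.35). The 12 relations within the hepatocyte-made set had 6 positive and 6 negative values, with a median r of -0.02.

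**Figure D5:**
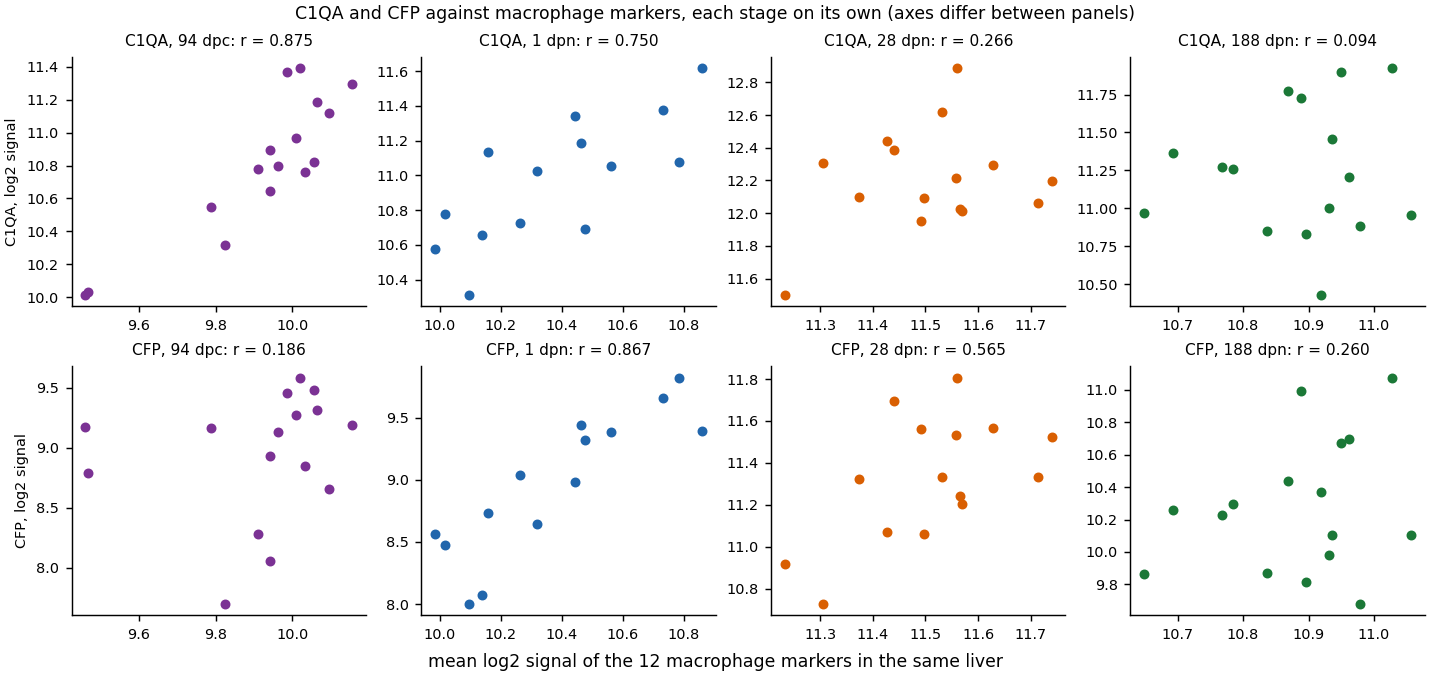
Log2 signal of C1QA (upper row) and CFP (lower row) against the mean log2 signal of 12 macrophage markers in the same animals (horizontal axes), with a panel for each stage. C1QA at 94 dpc (r = 0.875) and at 1 dpn (0.750) and CFP at 1 dpn (0.867) are higher in livers with a higher marker mean, and 2 fetuses lie apart at low marker means.

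Within a stage, livers with more of the macrophage markers had more C1QA before and at birth and more CFP at birth. C1QA correlated with the mean of these markers at 94 dpc (r = 0.875, p = 1e-05, the smallest the permutations can give, adjusted p = 0.0004, rho = 0.774, p = 0.00066, adjusted p = 0.0131, n = 16). The 2 fetuses with the lowest C1QA had the lowest marker means and both had arrays that stood apart in RNA quality, and without the 2 fetuses farthest from the median of the marker mean r was 0.736. At 1 dpn C1QA gave r = 0.750 (p = 0.00217, adjusted p = 0.0289, rho = 0.714, p = 0.00566, adjusted p = 0.0566, 0.695 without 2) and CFP r = 0.867 (p = 0.00012, adjusted p = 0.0024, rho = 0.890, p = 0.00011, adjusted p = 0.0044, 0.861 without 2), n = 14 each.

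Later these relations did not pass the test. CFP at 28 dpn had r = 0.565 (p = 0.0285, adjusted p = 0.143, rho = 0.457, p = 0.0898), which was 0.189 without the 2 farthest weaners. C1QA had r = 0.266 at 28 dpn and 0.094 at 188 dpn, and CFP r = 0.260 at 188 dpn. Whether r differed between stages was not tested, and with array medians subtracted CFP at 188 dpn had r = 0.692 (adjusted p = 0.0205). Of the 40 relations of members with the hepatocyte and macrophage markers, 9 had p at or below 0.05 for r. After adjustment 3 remained, those given for C1QA and CFP. By rank C9 at 1 dpn also passed with the macrophage markers (rho = 0.798, p = 0.00098, adjusted p = 0.0131, r = 0.696, p = 0.00642, adjusted p = 0.0642). No relation of MBL2, C9 or C7 with the hepatocyte markers was among them, and the 2 with p at or below 0.05 differed in sign, C9 at 1 dpn (r = 0.641, p = 0.0144, adjusted p = 0.0821, rho = 0.670, p = 0.0107, adjusted p = 0.0683) and C7 at 188 dpn (r = -0.615, p = 0.0119, adjusted p = 0.0793, rho = -0.624, p = 0.012, adjusted p = 0.0683). C1QA at 188 dpn had r = 0.617 with the hepatocyte markers (p = 0.0108, adjusted p = 0.0793, rho = 0.653, p = 0.00736, adjusted p = 0.0589).

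Among 20 relations with the GAPDH difference, 4 had p at or below 0.05 for r, and 1 remained after adjustment. C9 at 188 dpn had r = 0.744 (p = 0.00075, adjusted p = 0.015, rho = 0.656, p = 0.00748, adjusted p = 0.127, n = 16), 0.589 without the 2 pigs farthest from the median of that difference. When the arrays that stood apart in RNA quality were left out, this relation did not pass the test (r = 0.688). The other 3 were C7 at 94 dpc (r = -0.660, p = 0.00989, adjusted p = 0.0693, rho = -0.409, p = 0.117, -0.217 without 2) and C1QA at 94 dpc (r = -0.619, p = 0.0104, adjusted p = 0.0693, rho = -0.285, p = 0.281, 0.100 without 2) and at 188 dpn (r = -0.553, p = 0.0244, adjusted p = 0.122, rho = -0.609, p = 0.0142, -0.473 without 2). These are the stages of the relations of C1QA with the macrophage markers (94 dpc) and with CFP (188 dpn), for which leaving out the arrays that stood apart gave r = 0.736 (adjusted p = 0.0439) and r = 0.641 (adjusted p = 0.208).

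The genes whose brightest probe-set followed a member most closely over the 61 arrays were, as a description dominated by stage, HSPB2, S100A10, C8G, CRYAB and SLA-2 for MBL2 (r from 0.858 to 0.878), SULT1E1, UGT2B31, LRG1, LONP2 and CDO1 for C9 (0.697 to 0.773), MGP, C4A, C1S, C2 and SDC2 for C7 (0.868 to 0.894), ITGB2, ALOX5AP, C1QC, AIF1 and CFP for C1QA (0.837 to 0.874), and CYBA, FCER1G, LAPTM5, FCGR3A and ITGB2 for CFP (0.913 to 0.926). After the stage mean was taken out, r fell for all 5 members. C1QA then had C1QC first (0.818), followed by GRN, FCGRT, VAMP8 and TYROBP (0.655 to 0.728), and CFP had GM2A, CYBA, TMSB10, FCER1G and IFI35 (0.610 to 0.678). C7 had GP91-PHOX, AOAH, RCAN1, SKAP2 and FBN1 (0.506 to 0.572), C9 had SULT1E1, ENPEP, DIO2, PYGM and PLCZ1 (0.459 to 0.530), of which PLCZ1 was above the array median on 0 of 61 arrays, and MBL2 had LOC100517502, ATIC, SETDB1, SYBU and C1QTNF6 (0.430 to 0.550).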

How the data were processed

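Liver RNA of 61 LP offspring was measured on Affymetrix porcine arrays, 1 animal each. The deposited values are linear signal intensity per probe-set, which the authors scaled to a common array mean. GCOS 1.1.1 is listed in the notes of the submitters. The methods describe GC-RMA and MAS5 calls, which were not used here, and neither were sex, mother and weight. Symbols came from the platform annotation (10069 probe-sets with 1 symbol, 198 with several, 13732 with none, 124 controls). RefSeq (Sscrofa11.1) served for names alone.

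Intensities were taken to log2. Where several probe-sets had 1 symbol, the one brightest on average stood for the gene. Adjacent stages were compared with limma 3.58.1 (R 4.3.3) after the filters in the text, with Storey q. Counting error is not known for arrays, so their number limits the precision. Animals at 1 and 28 dpn enter 2 periods each.

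The members, the 47 complement genes and the marker lists of hepatocytes, macrophages, granulocytes, T and NK cells, erythroid, stellate, endothelial, B cells and cholangiocytes were chosen with earlier results of these data known. Complement genes named are, for each role and period, the called ones with the largest change (at most 3) and those called in opposite directions; further genes are the 5 most correlated with each member.

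Fit and permutation tests were tested on simulated data. Alternatives were Benjamini-Hochberg, other intensity filters, no SD filter, quantile normalization, subtracted array medians, 1 fit of all stages, trend and robust moderation, array weights (statmod 1.5.0), a pseudocount of 16, the array median as floor, averaged probe-sets, and leaving out arrays. Leaving out the fetus of low C9 and describing levels of MBL2 in single pigs were chosen after values were seen. Figures used matplotlib 3.10.9 in Python 3.11.15.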

Additional observations from a re-analysis of the deposited data

How the results depend on the processing

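No paired analysis was possible because the replicate numbers run on over the stages and no 2 stages share any. Under the alternatives, 139 of the differences of members and sets moved by less than the spread among animals and 5 by more. The 5 were MBL2 in period I with the array median as floor (0.46), C1QA in period II with array medians subtracted (1.59), and, with averaged probe-sets, C7 in period II (0.12), CFP in period II (1.65) and C9 in period III (-0.96). Of the counts of other complement genes, 81 stayed within 1.5 times and 3 did not: those lower in period II became 1 and those higher in period III became 7 with array medians subtracted, and those lower in period I became 1 with the mean of probe-sets. Single genes reversed in 2 cases, CFB in period II with the mean of probe-sets (-0.44) and CD46 in period II with array medians subtracted (0.0212), and 13 single calls were lost. Relations past the threshold numbered 1 in place of 0 for pairs of members and 6 in place of 3 for marker lists with array medians subtracted, and 5 for marker lists with the least typical array left out at every stage and with the mean of probe-sets. For the GAPDH difference they numbered 2 with quantile normalization, 3 with array medians subtracted, 0 when the 9 arrays that stood apart in RNA quality were left out and 0 with the mean of probe-sets, in place of 1. Leaving out the fetus of low C9, chosen after seeing the data, changed no count of relations. The causes of these shifts were not tested. Signals near or below the array median, as in fetal MBL2 and C2 and in CD55 and FCN1, limit what the fold changes of those genes can show.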
